A study of Homo sapiens with 6 samples.

Results

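The Polycomb genes described here are EZH2, EZH1, SUZ12, EED, RBBP4, JARID2, RNF2, RING1, BMI1 and CBX2, which are 10 of the 58174 genes in the deposited tables. They were taken by matching each Ensembl gene ID to these symbols, and all 10 had reads in every library. The RNA came from cells labelled as LN-229, an established human glioblastoma cell line. The 6 libraries comprise 3 labelled sh-JMJD1C, where sh usually stands for a short hairpin RNA, here against the transcript of the JmjC-domain protein JMJD1C, and 3 labelled control-NC. Both groups were made from nuclear-enriched total RNA after removal of ribosomal RNA. The labels name neither the hairpin sequence, nor the time after treatment, nor whether the treated cells were 1 clone. They also do not tell separate cultures from repeat libraries of 1 culture, so each p-value below measures the spread between libraries, which may be technical.

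Polycomb proteins keep genes silent in 2 kinds of complex. Polycomb repressive complex 2 (PRC2) places methyl groups on lysine of the histone H3 tail through EZH2 or its paralog EZH1, held in an active form by SUZ12 and EED, with RBBP4 or RBBP7 binding histones. Polycomb repressive complex 1 (PRC1) ubiquitinates another histone through RNF2 or its paralog RING1, each paired with a PCGF protein such as BMI1, and its canonical form reads the PRC2 mark through a CBX protein such as CBX2. In glioma cells EZH2 and BMI1 are known for their part in self-renewal.

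The libraries held between 544442 and 2960454 reads, with the smallest in control 1. Reads were recovered from the deposited FPKM (fragments scaled to gene length and sequencing depth), and a level is given below as scaled RPM (reads brought to a common library total with median-ratio factors). JMJD1C itself averaged 27.4 ± 16.1 scaled RPM in sh-JMJD1C libraries and 144 ± 44.1 in control libraries (SD, n = 3 each). Its log2 fold change was −1.82 (SE 0.41, adjusted p = 0.118) in the limma fit on FPKM and −2.49 (SE 0.51, adjusted p = 0.0253) in the limma-voom fit on reads, and −1.20 (adjusted p = 0.0573) on reads once trends over transcript length and GC content were removed. The groups did not overlap (two-sided exact permutation p = 0.1, the smallest that 3 libraries against 3 can give). The libraries also differed in RNA makeup. RN7SL, a cytoplasmic RNA of the signal recognition particle, made up 1.18%, 15.7% and 18.5% of all reads in sh-JMJD1C 1 to 3, against 0.378%, 0.59% and 1.77% in control 1 to 3. MALAT1, a nuclear long RNA, took 0.0915% to 0.292% in sh-JMJD1C libraries and 1.25% to 2.40% in control libraries. Mitochondrially encoded RNA, also from outside the nucleus, took 12.6%, 1.33% and 1.7% in sh-JMJD1C 1 to 3. In control 1 to 3 it took 7.04%, 8.7% and 2.93%. Its share was thus low in sh-JMJD1C 2 and 3, where that of RN7SL was high. In control 1, 25% of reads fell on the single gene ID ENSG00000281181, which took 1.32% in control 2 and at most 0.000365% in the other 4 libraries. The part of these differences in the results below was not tested. Of the markers for a glioma line, VIM had 3717 reads in sh-JMJD1C and 5253 in control libraries and CD44 had 1359 and 1872, while OLIG2 had 0 in all libraries, SOX2 had 1 and 1, and GFAP had 7 and 8.

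None of the 10 genes differed between the groups at an adjusted p under 0.05. The fit on FPKM called 0 of 10, where 0.185% of the 18383 genes tested were called (0.0598% higher and 0.125% lower in sh-JMJD1C), and the fit on reads called 0 of 10, where 5.52% of 11877 genes were called. At an unadjusted p under 0.05 the counts were 0 of 10 on FPKM, against 19.9% of all genes, and 2 of 10 on reads (EZH1 and CBX2), against 30.8% of all genes. In scaled RPM the groups did not overlap for 5 of the 10 genes: RING1 and CBX2 were higher in every sh-JMJD1C library than in any control library, and EZH2, EZH1 and RNF2 were lower. Of all genes on the same scale, 34.5% did not overlap, 17.3% higher and 17.2% lower in sh-JMJD1C libraries. In scaled FPKM the same 5 genes did not overlap, against 26.7% of all genes (12.2% higher and 14.5% lower). The median log2 fold change of the 10 genes was −0.41 on FPKM, against −0.16 over all genes, and −0.48 on reads, against −0.08 over all genes. Since this is nuclear-enriched RNA of cell populations, fewer cells that transcribe a gene, less RNA per cell and uneven enrichment of nuclear RNA cannot be told apart.

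**Figure D1:**
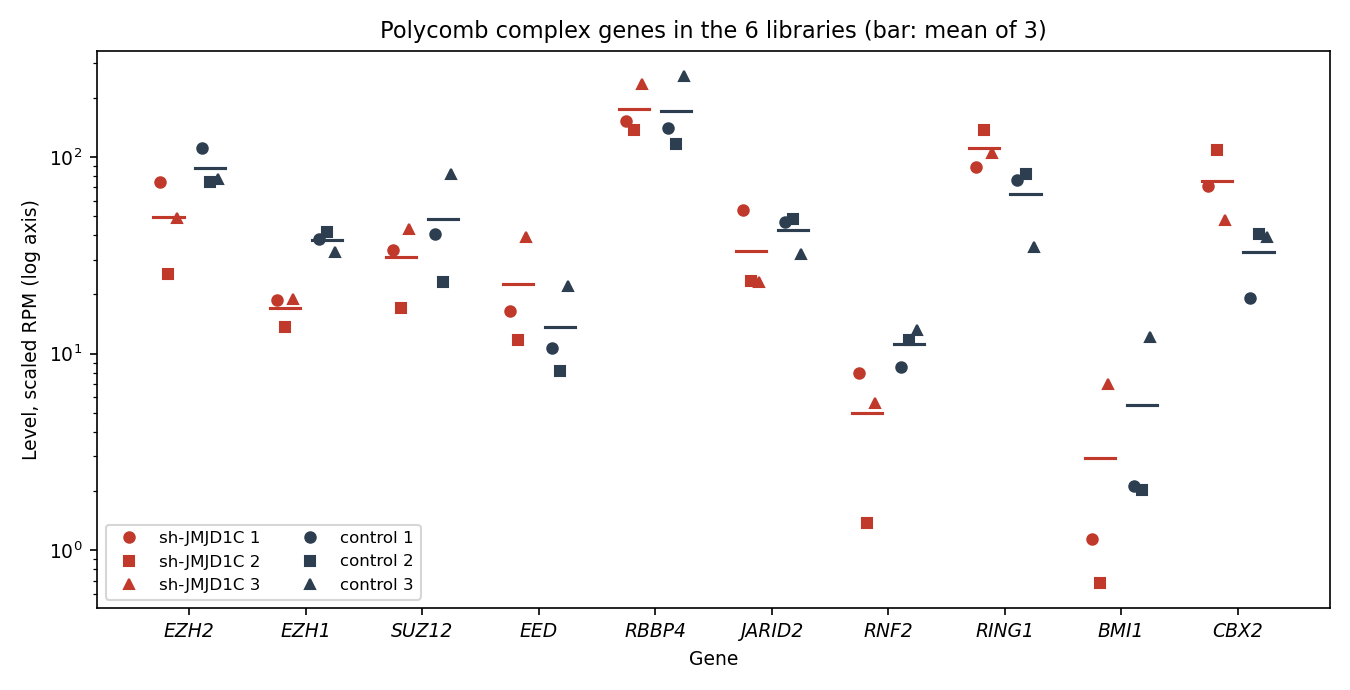
Scaled RPM (log axis) of each of the 10 Polycomb genes, with 1 point per library, sh-JMJD1C left of control, and a bar at the mean of each group. RING1 and CBX2 points of sh-JMJD1C lie above all control points, those of EZH2, EZH1 and RNF2 lie below them, and the points of the other 5 genes interleave.

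**Figure D2:**
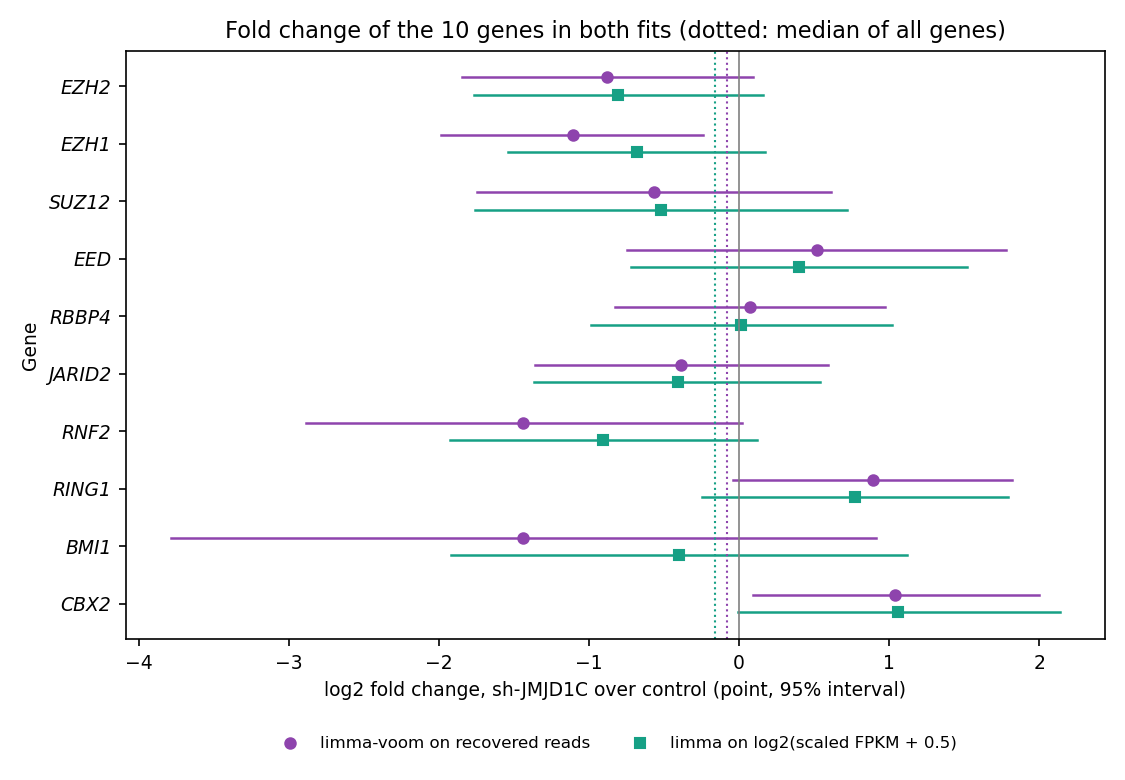
Log2 fold change of sh-JMJD1C over control with its 95% interval for each of the 10 genes, from limma-voom on reads (circles) and from limma on log2(scaled FPKM + 0.5) (squares); dotted lines mark the median of all genes. Only the read-based intervals of EZH1 and CBX2 leave out 0, and neither gene passed the adjusted threshold.

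EZH2 and EZH1 are the alternative catalytic subunits of PRC2. EZH2 (ENSG00000106462, chromosome 7, 148807383 to 148884321, minus strand, hg38) had 131, 37 and 70 reads in sh-JMJD1C 1 to 3, against 52, 184 and 315 in control 1 to 3. These are 74.4, 25.4 and 49.2 scaled RPM in sh-JMJD1C libraries, against 111, 74.8 and 77.0 in control libraries. The highest sh-JMJD1C library, 74.4, ended just under the lowest control library, 74.8. The log2 fold change was −0.81 on FPKM (SE 0.41, adjusted p = 0.307 with limma) and −0.88 on reads (SE 0.44, 95% interval −1.85 to 0.09, adjusted p = 0.197 with limma-voom).

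EZH1 (ENSG00000108799, chromosome 17, 42700275 to 42745049, minus strand), the catalytic subunit more typical of non-dividing cells, had the tightest replicates of the 10 genes. Its level was 18.7, 13.7 and 19 scaled RPM in sh-JMJD1C 1 to 3, against 38.4, 41.5 and 33.0 in control 1 to 3, on 80 and 255 reads in all. The groups were well apart, and sh-JMJD1C libraries averaged 45.6% of the control mean (17.1 ± 2.97 and 37.6 ± 4.30 scaled RPM, SD, n = 3 each). The log2 fold change on reads was −1.11 (SE 0.40, 95% interval −1.99 to −0.24, adjusted p = 0.0971 with limma-voom). On FPKM it was −0.68 (SE 0.36, adjusted p = 0.323 with limma), a scale on which the pseudocount of 0.5 pulls low genes toward 0.

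The 2 genes are related in sequence, but bases that differ recur throughout even their most alike stretch. Whether any reads were placed on the wrong copy was not tested. The 90-base coding windows in which they share most bases, 77 of 90, lie in the region that encodes the catalytic SET domain, at coding positions 1981 to 2070 of EZH1 and 1993 to 2082 of EZH2 (GENCODE 29 transcripts on hg38, 5′ to 3′ on the gene's strand; capitals mark the 13 bases that differ):
EZH2: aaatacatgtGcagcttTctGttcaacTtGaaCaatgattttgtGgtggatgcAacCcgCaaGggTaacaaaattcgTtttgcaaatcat
EZH1: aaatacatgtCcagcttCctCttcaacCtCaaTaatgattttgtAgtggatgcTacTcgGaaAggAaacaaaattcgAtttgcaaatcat
The coding sequences have a GC content of 44.2% in EZH2 and 48.0% in EZH1. Both genes had lower levels in sh-JMJD1C libraries, and their balance was similar. EZH1 made up 20.1%, 35.1% and 27.8% of the reads of the pair in sh-JMJD1C 1 to 3, against 25.7%, 35.7% and 30.0% in control 1 to 3. The groups overlapped, with means of 27.7% ± 7.48 in sh-JMJD1C and 30.5% ± 4.99 in control libraries (SD, n = 3 each; two-sided exact permutation p = 0.6).

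SUZ12, EED and RBBP4 complete the PRC2 core, and in all 3 the groups overlapped. SUZ12 (ENSG00000178691, chromosome 17, 31937018 to 32001045, plus strand), the scaffold subunit, had 33.5, 17.1 and 42.8 scaled RPM in sh-JMJD1C 1 to 3, against 40.5, 23.2 and 81.9 in control 1 to 3. Its log2 fold change on FPKM was −0.52 (SE 0.52, adjusted p = 0.572 with limma), and control 3 alone stood high. The pseudogene SUZ12P1, a partial copy, had 50 reads in sh-JMJD1C and 118 in control libraries beside 145 and 411 of SUZ12, so reads shared by the 2 copies leave the SUZ12 level uncertain.

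EED (ENSG00000074266, chromosome 11, 86244544 to 86278813, plus strand), the subunit that binds trimethylated H3 and stimulates the enzyme, had 16.5, 11.7 and 39.3 scaled RPM in sh-JMJD1C 1 to 3, against 10.7, 8.13 and 22.0 in control 1 to 3. Its log2 fold change was 0.40 on FPKM (SE 0.47, adjusted p = 0.632 with limma), on as few as 5 reads in control 1. Library 3 was the highest of each group, and the groups overlapped.

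RBBP4 (ENSG00000162521, chromosome 1, 32651142 to 32686211, plus strand), a histone-binding protein that PRC2 shares with other chromatin complexes, was the most deeply read of the 10 genes, with 804 reads in sh-JMJD1C and 1410 in control libraries. It had 152, 138 and 235 scaled RPM in sh-JMJD1C 1 to 3, against 141, 117 and 258 in control 1 to 3. On FPKM the log2 fold change was 0.01 (SE 0.42, 95% interval −0.99 to 1.02, adjusted p = 0.987 with limma), an interval that still allows a change of about 1 log2 unit either way. The pseudogenes RBBP4P1 and RBBP4P2 had 24 and 29 reads in sh-JMJD1C and 52 and 36 in control libraries, and SYNC, which overlaps RBBP4 on the opposite strand, had 115 in sh-JMJD1C and 228 in control libraries.

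JARID2 (ENSG00000008083, chromosome 6, 15246296 to 15522040, plus strand) is the accessory subunit of PRC2.2 that helps bring the complex to chromatin. It belongs by homology to the Jumonji family, as JMJD1C does, but is known to lack demethylase activity. Its level was 53.9, 23.3 and 23.2 scaled RPM in sh-JMJD1C 1 to 3, against 46.9, 48.4 and 32.3 in control 1 to 3. Here sh-JMJD1C 1 was the highest of all 6 libraries and the other 2 sh-JMJD1C libraries were the lowest. Fitted log2 fold changes were −0.41 on FPKM (SE 0.40, adjusted p = 0.563 with limma) and −0.39 on reads (SE 0.45, adjusted p = 0.569 with limma-voom).

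RNF2 and RING1 are the alternative ubiquitin ligases of PRC1, and in scaled RPM they stood on opposite sides of the controls. RNF2 (ENSG00000121481, chromosome 1, 185045364 to 185102608, plus strand), also called RING1B and the more active enzyme, had 14, 2 and 8 reads in sh-JMJD1C 1 to 3, against 4, 29 and 54 in control 1 to 3. In scaled RPM this was 7.95, 1.37 and 5.62 in sh-JMJD1C libraries, against 8.53, 11.8 and 13.2 in control libraries. The gap between the groups, 7.95 to 8.53, rests on 14 reads in sh-JMJD1C 1 and 4 in control 1. The log2 fold change was −0.91 on FPKM (SE 0.43, adjusted p = 0.289 with limma) and −1.44 on reads (SE 0.67, 95% interval −2.89 to 0.02, adjusted p = 0.165 with limma-voom).

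RING1 (ENSG00000204227, chromosome 6, 33208495 to 33212722, plus strand), also called RING1A, had 156, 201 and 149 reads in sh-JMJD1C 1 to 3, against 36, 202 and 143 in control 1 to 3. Its levels were 88.6, 138 and 105 scaled RPM in sh-JMJD1C libraries, against 76.8, 82.1 and 34.9 in control libraries. On this scale every sh-JMJD1C library was above every control library, with control 3 lowest. Its fitted log2 fold change was 0.77 on FPKM (SE 0.43, adjusted p = 0.345 with limma) and 0.89 on reads (SE 0.43, 95% interval −0.04 to 1.82, adjusted p = 0.176 with limma-voom).

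The pair differs much more in base composition than EZH1 and EZH2 do, which is shown here because fold changes in these libraries followed GC content over all genes. The windows with most shared bases, 72 of 90, begin within the region that encodes the RING finger and run past its end, at coding positions 223 to 312 of RING1 and 232 to 321 of RNF2 (GENCODE 29 transcripts, 5′ to 3′; capitals mark the 18 bases that differ):
RNF2: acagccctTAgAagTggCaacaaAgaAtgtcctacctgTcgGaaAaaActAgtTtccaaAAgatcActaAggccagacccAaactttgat
RING1: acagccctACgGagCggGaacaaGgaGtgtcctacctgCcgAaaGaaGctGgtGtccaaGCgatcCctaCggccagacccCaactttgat
At 15 of the 18 differing positions RING1 has G or C where RNF2 has A or T, and at 1 position the reverse holds. The GC content was 42.2% in the RNF2 window and 57.8% in the RING1 window, and 41.8% and 62.1% over the whole coding sequences.

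RNF2 made up 8.24% (exact 95% binomial interval 4.58 to 13.4), 0.985% (0.12 to 3.51) and 5.10% (2.23 to 9.79) of the RNF2 plus RING1 reads in sh-JMJD1C 1 to 3. Its share was 10% (2.79 to 23.7), 12.6% (8.57 to 17.5) and 27.4% (21.3 to 34.2) in control 1 to 3. The groups did not overlap, with means of 4.77% ± 3.64 in sh-JMJD1C and 16.7% ± 9.40 in control libraries (SD, n = 3 each; two-sided exact permutation p = 0.1). The interval of control 1, on 40 reads, spans every sh-JMJD1C value but 1. Without both libraries numbered 1 the means were 3.04% in sh-JMJD1C and 20% in control libraries.

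**Figure D3:**
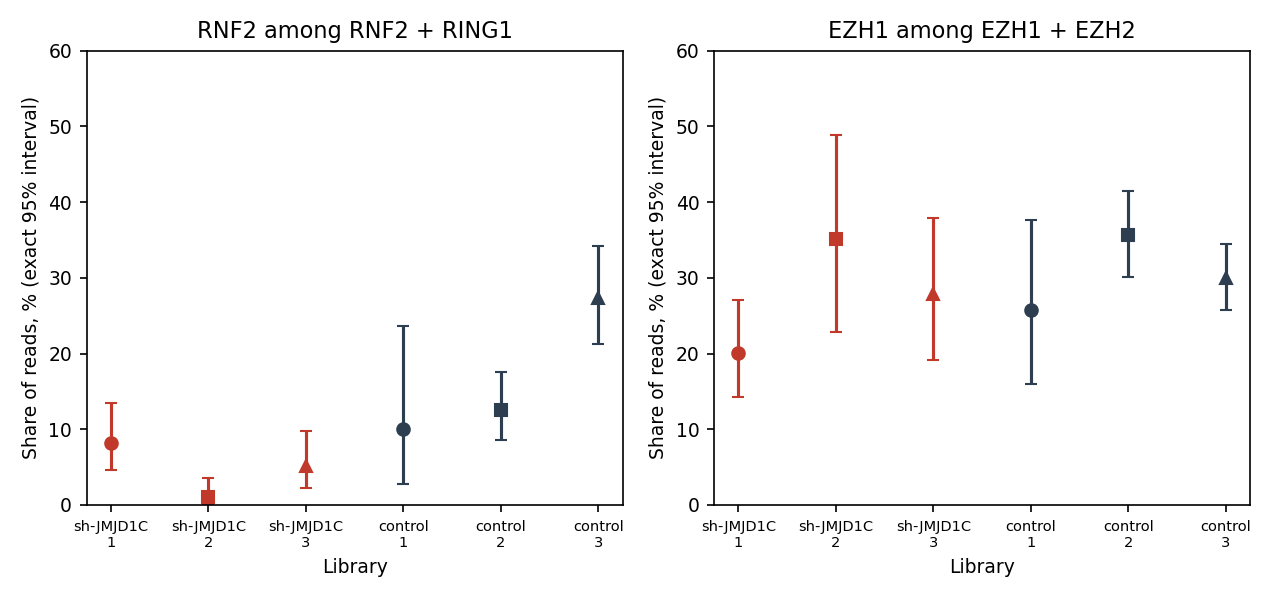
Share of RNF2 in the reads of RNF2 plus RING1, and of EZH1 in the reads of EZH1 plus EZH2, in percent per library with exact 95% binomial intervals for counting error. RNF2 shares are 0.985% to 8.24% in sh-JMJD1C and 10% to 27.4% in control libraries, while EZH1 shares overlap between the groups.

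BMI1 and CBX2 are further PRC1 subunits. BMI1 (ENSG00000168283, chromosome 10, 22321211 to 22331484, plus strand), the PCGF partner that stimulates the ligase, was near the detection limit, with 2, 1 and 10 reads in sh-JMJD1C 1 to 3, against 1, 5 and 50 in control 1 to 3. Its levels of 1.14, 0.686 and 7.02 scaled RPM in sh-JMJD1C libraries overlapped with 2.13, 2.03 and 12.2 in control libraries. The log2 fold change was −0.40 on FPKM (SE 0.64, adjusted p = 0.732 with limma) and −1.44 on reads (SE 1.08, 95% interval −3.79 to 0.91, adjusted p = 0.374 with limma-voom), with most reads of each group in library 3. The read-through gene COMMD3-BMI1 covers the same strand and is listed at 0, so how reads common to both were assigned is not known.

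CBX2 (ENSG00000173894, chromosome 17, 79778132 to 79787983, plus strand), the chromodomain subunit that can also compact chromatin, had the largest positive fold change of the 10 genes. It had 125, 159 and 68 reads in sh-JMJD1C 1 to 3, against 9, 100 and 161 in control 1 to 3. Levels were 71.0, 109 and 47.8 scaled RPM in sh-JMJD1C libraries, against 19.2, 40.7 and 39.3 in control libraries. On this scale all sh-JMJD1C libraries were above all control libraries, and their mean was 230.0% of the control mean (75.9 ± 30.9 and 33.1 ± 12 scaled RPM, SD, n = 3 each). The log2 fold change was 1.06 on FPKM (SE 0.45, 95% interval −0.01 to 2.14, adjusted p = 0.255 with limma) and 1.04 on reads (SE 0.44, 95% interval 0.09 to 2, adjusted p = 0.136 with limma-voom).

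To compare levels between genes, scaled RPM was divided by the length of the longest annotated transcript. Which transcripts the cells expressed was not tested, so the order depends on this choice of length. Before the division RBBP4 averaged 175 scaled RPM in sh-JMJD1C and 172 in control libraries, above RING1 at 110 and 64.6. RING1 was first in both groups, at 63.0 ± 14.3 RPM per kb in sh-JMJD1C and 36.9 ± 14.7 in control libraries (SD, n = 3 each). Its closest gene in sh-JMJD1C libraries was RBBP4 at 22.0 ± 6.63 RPM per kb, followed by CBX2 (16.3), EZH2 (13.6), EED (8.13), SUZ12 (6.94), JARID2 (5.82), EZH1 (3.71), RNF2 (1.38) and BMI1 (0.86). Neighbours in this order overlapped between libraries except RING1 with RBBP4 and EZH1 with RNF2. In control libraries EZH2 (24.0 ± 5.56 RPM per kb) and RBBP4 (21.6 ± 9.54) came after RING1, then SUZ12 (10.8), EZH1 (8.14), JARID2 (7.39), CBX2 (7.12), EED (4.91), RNF2 (3.10) and BMI1 (1.59). There every neighbour pair overlapped. RNF2 and BMI1 were the lowest of the 10 genes in both groups.

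Fold changes in these libraries followed GC content and transcript length over all genes. Genes with a GC content of at most 40% in the longest transcript had a median log2 fold change of −1.01 on reads, and those above 60% had 0.65. Genes with transcripts of at most 1000 bases had a median of 0.95, and those above 8000 bases had −0.89. RING1 (61.6% GC, 1752 bases) and CBX2 (59.7% GC, 4644 bases) are the most GC-rich of the 10 genes. In scaled RPM they were the only ones whose sh-JMJD1C libraries all lay above the controls. RNF2 (38.1%), EZH2 (42.7%) and EZH1 (50.5%) were below the controls, while EED, at 33.0% the poorest in GC, had a positive fold change. After a trend over length was removed in each library, the log2 fold change was 1.33 for CBX2 (adjusted p = 0.0908 with limma-voom), −0.84 for EZH1, −1.36 for RNF2, −0.79 for EZH2 and 0.27 for RING1. The JARID2 value turned positive, at 0.08. After the GC trend was removed as well, RING1 stood at −0.25 and SUZ12 at 0.31, each the opposite sign, so that RING1 and RNF2 (−0.70) were then both negative. EZH2 stood at −0.40 (adjusted p = 0.517), EZH1 at −0.98 (adjusted p = 0.08), CBX2 at 0.80 (adjusted p = 0.164) and EED at 1.19 (adjusted p = 0.068). JARID2 was at −0.05 and BMI1 at −0.76. In that fit RBBP4, a long transcript of 7943 bases, had a log2 fold change of 1.23 (adjusted p = 0.0448 with limma-voom), the single call among the 10 genes. The same fit called 6.76% of 11857 genes. Without removal of trends RBBP4 stood at 0.07 on reads.

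**Figure D4:**
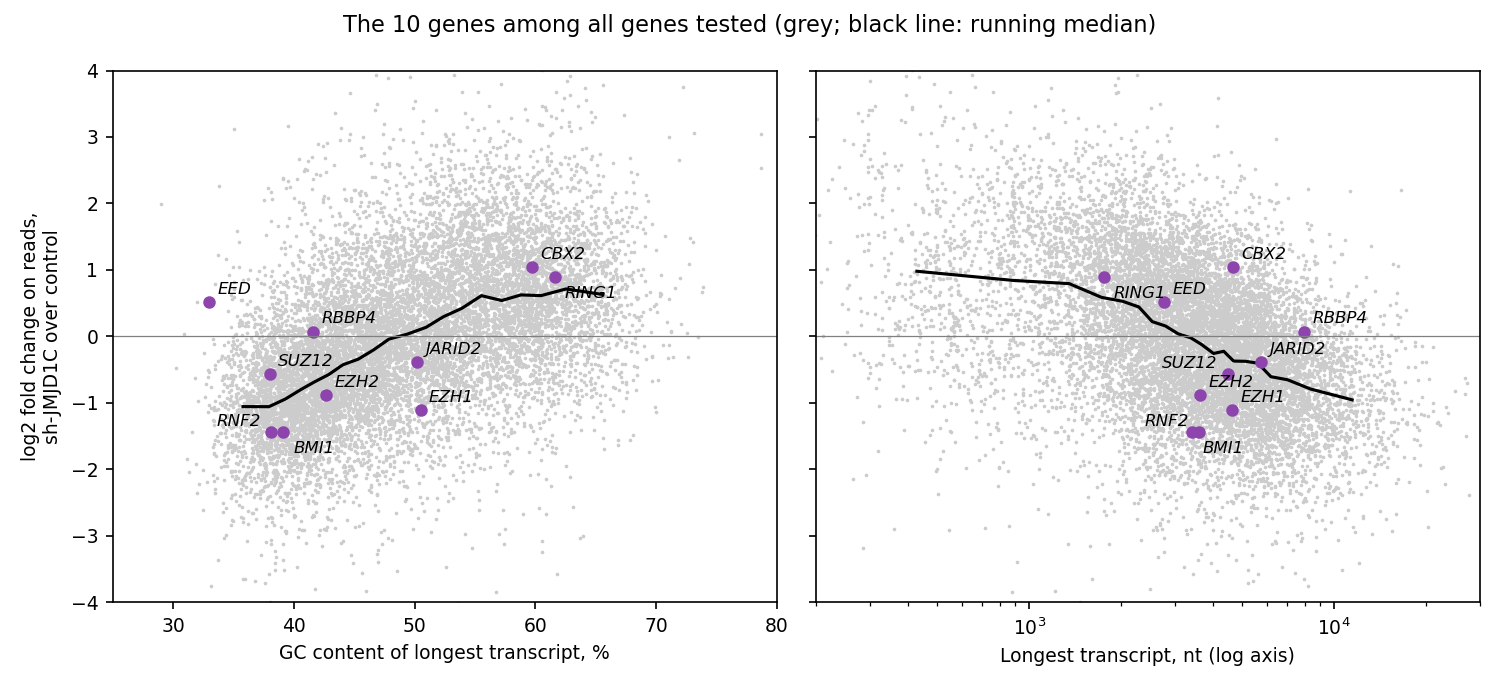
Log2 fold change on reads of sh-JMJD1C over control against the GC content (left) and the length (right, log axis) of the longest transcript, with all genes tested in grey (those beyond the axis limits are not drawn), their running median as a black line, and the 10 Polycomb genes in purple. RING1 and CBX2 lie at the GC-rich end, and EED lies above the running median at the GC-poor end.

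The 10 genes varied widely between libraries of 1 group. The ratio of the highest to the lowest library ran between 1.39 (EZH1) and 10.2 (BMI1) within sh-JMJD1C and between 1.26 (EZH1) and 6.01 (BMI1) within control. SUZ12, EED, RBBP4 and BMI1 were highest in library 3 of both groups, and 7 of the 10 genes were lowest in sh-JMJD1C 2. Against the control mean, the median log2 level of the 10 genes was −0.15, −1.07 and 0.27 in sh-JMJD1C 1 to 3, where the median of all genes was −0.03, −0.06 and −0.05. The library sh-JMJD1C 2 had the lowest MALAT1 share (0.0915%) and an RN7SL share of 15.7%. In sh-JMJD1C 3, with an RN7SL share of 18.5%, the median of the 10 genes was not low. Over the wider Polycomb list below the medians were −0.09, −0.46 and −0.37 in sh-JMJD1C 1 to 3. Whether the RNA makeup of a library has a part in these medians was not tested. On reads, the log2 fold change of EZH2 was −0.43 without sh-JMJD1C 2, where all 6 libraries gave −0.88, and that of RING1 was 0.34 without control 3, where all 6 gave 0.89.

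The list was then widened to 55 genes of PRC2, PRC1, the PR-DUB deubiquitinase complex and the H3K27 demethylases. On FPKM 50 of them were tested and 0 were called with limma, with 8 at an unadjusted p under 0.05 and a median log2 fold change of −0.29. Over all genes on FPKM 19.9% had an unadjusted p under 0.05, and the median was −0.16. On reads 53 were tested with limma-voom, 1 was called lower and 0 higher, 17 had an unadjusted p under 0.05, and the median was −0.39. Over all genes on reads 1.81% were called lower and 3.71% higher, 30.8% had an unadjusted p under 0.05, and the median was −0.08. The groups did not overlap for 17 of the 53 genes, 7 higher and 10 lower, against 34.5% of all genes. EZHIP, an inhibitor of PRC2, and ASXL3, a PR-DUB partner, had 0 reads in every library.

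The gene called was LCOR, whose locus also encodes the PRC2-binding protein PALI1. It had 47.1, 21.9 and 34.4 scaled RPM in sh-JMJD1C 1 to 3, against 115, 92.7 and 110 in control 1 to 3, so that sh-JMJD1C libraries averaged 32.6% of control. The log2 fold change on reads was −1.65 (SE 0.40, adjusted p = 0.0391 with limma-voom), and on FPKM it was −1.20 (SE 0.33, adjusted p = 0.15 with limma). Its longest transcript has 16004 bases, and with the length trend removed the value was −0.65 (adjusted p = 0.242), and −0.27 (adjusted p = 0.573) with the GC trend removed as well. The call held in 2 of the 6 fits on reads that leave out 1 library, with log2 fold changes between −1.90 and −1.32.

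Outside the 10 genes, the uncalled genes with no overlap and the largest positive values on reads included further CBX proteins of canonical PRC1. CBX8 (log2 fold change 1.18, adjusted p = 0.13 with limma-voom) and CBX6 (0.95, adjusted p = 0.121) joined CBX2 in having every sh-JMJD1C library above every control library in scaled RPM. With the length and GC trends removed the values were 0.81 for CBX8 and 0.95 for CBX6. CBX8 lies beside CBX2 on chromosome 17, at 79792132 to 79801683 on the opposite strand. The GC content is 57.5% for CBX8 and 59.8% for CBX6, close to that of CBX2. The other uncalled genes named on the positive side were PCGF1 (1.04, adjusted p = 0.138), the PCGF partner of a variant PRC1, and BAP1 (0.96, adjusted p = 0.137), the deubiquitinase that opposes PRC1. With both trends removed they stood at 0.01 for PCGF1 and 0.59 for BAP1.

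Outside the 10 genes, of which RNF2 stood at −1.44, the uncalled genes with the largest negative values and no overlap were MBD5 (−1.46, adjusted p = 0.0991 with limma-voom), KDM6A (−1.25, adjusted p = 0.118), PHC3 (−1.24, adjusted p = 0.0699) and SCML2 (−1.22, adjusted p = 0.154). MBD5 can join PR-DUB, KDM6A removes the PRC2 mark, and PHC3 and SCML2 are subunits or partners of canonical PRC1. Their transcripts are 9512, 5924, 12666 and 4200 bases long, and with the length trend removed their values were −0.69, −0.76, −0.33 and −1.01. With the GC trend removed as well they were −0.17, −0.42, 0.30 and −0.45, so that PHC3 changed sign.

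**Figure D5:**
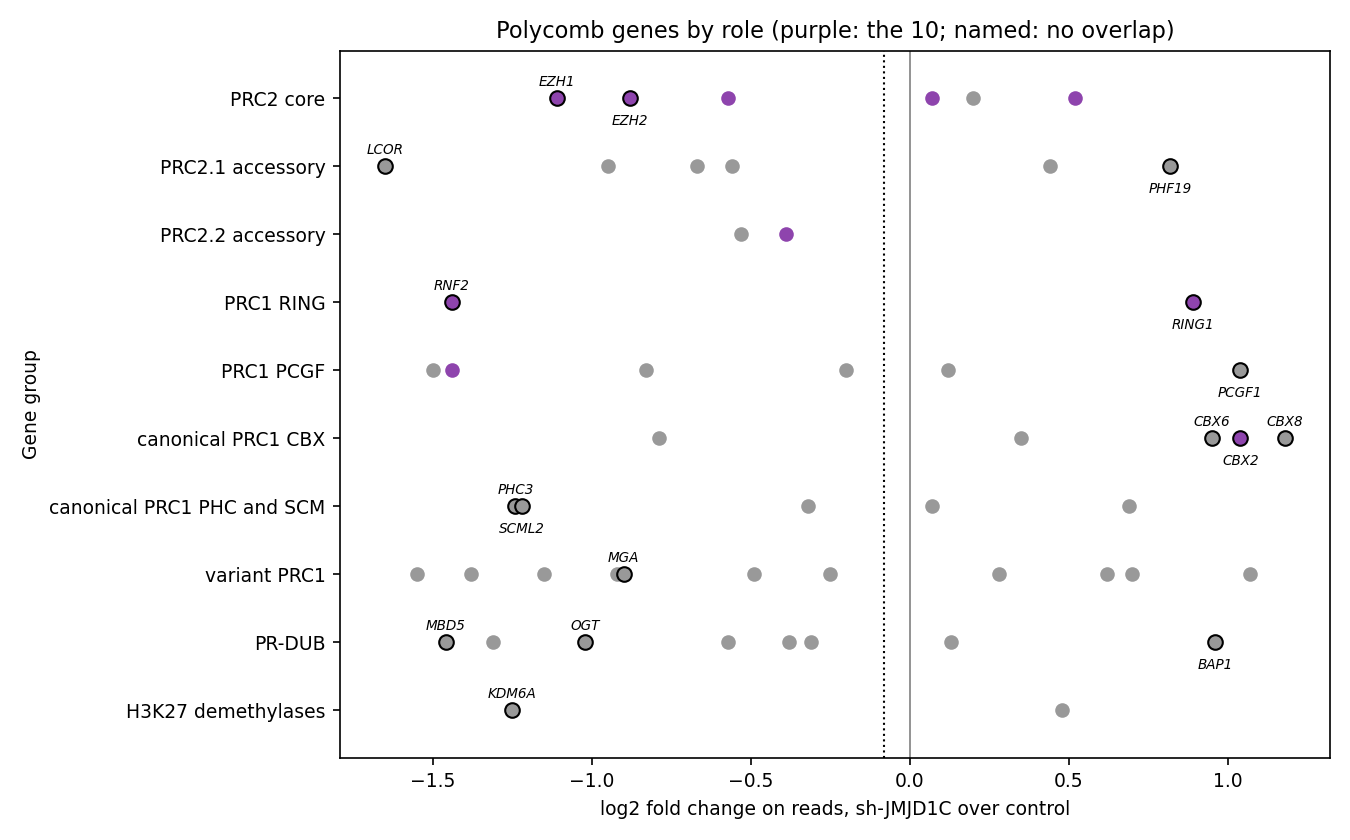
Log2 fold change on reads of sh-JMJD1C over control for the 53 tested Polycomb genes in rows by role, with the 10 genes in purple and the others in grey; outlined, named points are genes whose groups do not overlap, and the dotted line is the median of all genes. LCOR, at −1.65, is the single called gene, and CBX2, CBX6 and CBX8 are outlined on the positive side.

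A list of 16 genes that Polycomb is known to keep silent in many cell types was set beside the complexes. GATA4, PAX3, PAX7, SOX17, FOXA2, HAND1, TBX5 and NKX2-2 had 0 reads in every library, and NEUROG2 and WNT1 had 0 in sh-JMJD1C libraries against 7 and 6 in control libraries. With 1660561 to 1919675 reads in sh-JMJD1C libraries, a count of 0 allows 1.56 to 1.81 RPM (counting error only). In control 1 to 3 a count of 0 allows 5.51, 1.5 and 1.01 RPM. Of the 4 genes with enough reads for the test, 1 was called, higher in sh-JMJD1C, where 3.71% of all genes were called higher. CDKN2A, which encodes the cell-cycle inhibitor p16 and is a classic Polycomb target, had 279, 766 and 506 scaled RPM in sh-JMJD1C 1 to 3, against 111, 148 and 57.9 in control 1 to 3. CDKN2A rose on reads by 2.29 log2 units (SE 0.48, adjusted p = 0.0276 with limma-voom), but missed the threshold on FPKM (2.15, SE 0.51, adjusted p = 0.125 with limma). With the length trend removed it was 1.5 (adjusted p = 0.0548), with the GC trend removed as well it was 0.98 (adjusted p = 0.0656), and the call held in 2 of the 6 fits on reads without 1 library. Its GC content is 61.4% and its longest transcript 1283 bases. Its neighbour CDKN2B and CDKN1C were not called. LN-229 has been described as carrying a deletion of CDKN2A, whereas all 6 libraries had between 52 and 1117 reads of it, which goes against that description. Whether the cells are of the labelled line was not tested.

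Across the 6 libraries the protein-coding genes whose log2 level followed EZH2 most closely were HIF1A (Pearson r = 0.9962), CCDC174 (0.9929) and ANP32B (0.9924). For JARID2 they included EMSY (0.9915) and CBLL1 (0.9889). These are the top of 10210 genes compared over 6 points that share depth and base composition, and 537 genes exceeded 0.9 with EZH2 and 284 with JARID2, so they are a description only.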

How the data were processed

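The authors deposited FPKM per Ensembl gene and library; per the file headers the columns are FPKM on rising shares of the reads, and the full-library column was used. The submitters' processing notes name Bowtie 0.12.2 and hg38 with no role. Not given in the sources used here are the counting tool, the annotation and the strand setting.

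FPKM were divided by median-ratio factors (genes with mean FPKM of at least 1, above 0 in all libraries). Genes with mean FPKM of at least 0.5 were fitted as log2(scaled FPKM + 0.5) with limma 3.58.1 in R 4.3.3 (trend, two-sided, Benjamini-Hochberg at 0.05, group alone). Fold changes on that scale understate those of low genes.

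Low FPKM are whole multiples of 1 read, so reads were recovered: within 0.05 of a read, 100.0% of the values under 1000 reads came out whole. The authors' length equalled the summed GENCODE 29 transcripts for 93.9% of 29280 genes above 0, so deposited FPKM were not compared between genes. Reads of 11877 genes with at least 60 reads were fitted with limma-voom (scaling genes: mean of at least 20 reads), also after removing lowess trends (span 0.3) over length and GC content. Both procedures were tested on simulated data. The data simulated for the fits held no trend of fold change over length or GC content, so they do not cover the trends described above. Binomial intervals (Clopper-Pearson, 95%) and the floor of 3 reads cover counting error only, without molecular identifiers.

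The 10 genes and all lists were chosen with earlier results of these data known. Named genes were the 10, JMJD1C, every called gene of the lists, the 4 largest uncalled non-overlapping genes in each direction on reads, and the 3 genes most correlated with EZH2 and JARID2. The other list genes named were chosen after their values were seen. Some genes that the rule covers are not reported here. Alternatives were other pseudocounts, filters and scalings, protein-coding genes alone, array weights, a replicate block and leaving out libraries.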

Additional observations from a re-analysis of the deposited data

How the results depend on the processing

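The count of 0 called among those of the 10 genes that were tested held under all alternatives but 2. These were reads with a replicate block (4: EZH2, EZH1, RING1 and CBX2) and reads with length and GC trends removed (1, RBBP4). The block on reads called 35.9% of all genes, and the removal of both trends 6.76%. The labels do not say whether equal replicate numbers pair the libraries. Deviations of same-numbered libraries from their group means correlated at 0.02, 0.37 and 0.48 for numbers 1 to 3. The same-numbered control was the closest match for sh-JMJD1C 2 and 3 but not for sh-JMJD1C 1. With the block on FPKM 0 of the 10, 0 of 50 tested Polycomb genes and 0 of all genes were called. On reads the block called 20 of the 53 tested Polycomb genes and 4260 of all 11877 genes. Polycomb calls were 0 in the FPKM fit and 1 with protein-coding genes only, on reads, on reads without both libraries numbered 1, and on reads of genes with at least 1 read. Of all genes those fits called 0.185%, 8.96%, 5.52%, 8.38% and 2.59%. Polycomb calls on reads were 2 with library totals (10.1% of all genes) and 3 each with quantile normalization (8.59%) or both trends removed (6.76%). Leaving out 1 library gave 0 to 6 Polycomb calls on reads, the 6 without sh-JMJD1C 1. Of all genes those fits called 0.271% to 20.1%, the highest share also without sh-JMJD1C 1. JMJD1C was −1.82 with protein-coding genes only, −2.49 on reads and on genes with at least 1 read, −2.48 with the block, −2.92 with library totals, −2.68 with quantile normalization, −1.75 with the length trend removed, −1.20 (not called, adjusted p = 0.0573) with both trends removed and −2.83 without both libraries numbered 1. Leaving out 1 library gave −2.05 to −1.53 on FPKM and −2.91 to −1.92 on reads (called without control 2, at −2.81, and without sh-JMJD1C 1). Signs turned for SUZ12 (0.31) and RING1 (−0.25) with both trends removed, for JARID2 (0.08) with the length trend removed, and for RBBP4. RBBP4 was −0.28 on FPKM as deposited, −0.17 with quantile normalization, −0.09 on FPKM without both libraries numbered 1, −0.30 on reads with library totals and −0.32 with quantile normalization. Leaving out 1 library gave RBBP4 −0.21 to 0.31 on FPKM and −0.15 to 0.31 on reads (−0.02 without control 1). Library totals put the median of all genes on reads at −0.52 (−0.08 as scaled), and FPKM as deposited put it at −0.38 (−0.16 as scaled). Called genes numbered 34 of all on FPKM (0 to 911 over the alternatives) and 656 on reads (31 to 4260). Below the read minimum, and so not fitted on reads, were BMI1 and RNF2 without control 3 and BMI1 without sh-JMJD1C 3. On FPKM 8 of the 10 genes were tested with a mean FPKM of at least 1 (not EZH1 and BMI1). Without control 3, 9 were tested on FPKM (not BMI1). The cause of these changes was not tested. Depth limits BMI1, RNF2 and control 1 most.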

Other observations

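Proliferation genes were set beside the Polycomb genes, since EZH2 is known to follow the cell cycle. On reads, 2 of 7 were called higher with limma-voom: CCNE1 (log2 fold change 2.19, adjusted p = 0.0234) and CCNB1 (1.82, adjusted p = 0.0358), where 3.71% of all genes were called higher. CCNE1 was not called with both trends removed (1.39, adjusted p = 0.0517), nor CCNB1 with the length trend removed (1.38, adjusted p = 0.0608) or with library totals (1.42, adjusted p = 0.0586). Both calls ended without sh-JMJD1C 2, sh-JMJD1C 3, control 1 or control 3, with adjusted p between 0.068 and 0.131 for CCNE1 and between 0.0942 and 0.141 for CCNB1, and leaving out control 2 ended that of CCNB1 (0.0507). E2F1 had 0.40 and MKI67 −0.33. On FPKM 0 of 7 were called, with 3 at an unadjusted p under 0.05, against 19.9% of all genes. The epithelial keratin gene KRT18, listed among markers of other cell types, had 1680, 2360 and 1460 scaled RPM in sh-JMJD1C 1 to 3, against 505, 681 and 335 in control 1 to 3 (log2 fold change 1.87, adjusted p = 0.0303 with limma-voom). It was not called on FPKM (adjusted p = 0.125), nor on reads with quantile normalization (1.11, adjusted p = 0.0931), the length trend removed (1.40, adjusted p = 0.0608) or both trends removed (0.96, adjusted p = 0.0675). Without sh-JMJD1C 2, sh-JMJD1C 3, control 1 or control 3 its adjusted p was between 0.0654 and 0.141. MBP, a myelin gene and the other marker of that list with enough reads, had 16.5, 9.6 and 7.02 scaled RPM in sh-JMJD1C 1 to 3, against 44.8, 27.2 and 21 in control 1 to 3 (log2 fold change −1.32, adjusted p = 0.106 with limma-voom). The immune and endothelial markers CD3E, AIF1 and PECAM1 had 0 reads in all libraries, and PTPRC had 0 in sh-JMJD1C and 1 in control libraries.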
